A study of Zea mays with 6 samples.

Results

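The genes wip1 and cpi2 encode plant protease inhibitors, and piip1 was grouped with them. Transcripts of these 3 genes were followed in the maize mesocotyl on 6 Affymetrix arrays. Their probe sets were found through the gene identifiers of the platform annotation, by symbol or synonym, which gave 11 of the 17621 maize probe sets of the array. Of these, 1 belongs to wip1, 6 to piip1 and 4 to cpi2, and the 3 genes are among 1108 genes that the annotation names. The mesocotyl is the stem segment between seed and coleoptile, which carries the shoot of a buried grass seedling upwards. All plants were of the inbred line 3681-4, sown 20 cm deep, kept in darkness and sampled 10 days after sowing. The groups were plants given the gibberellin GA3, plants given UCZ, described by the series as a compound that blocks gibberellin synthesis, and control plants, with 2 biological replicates each. Neither dose, timing and route of treatment nor the number of plants behind each RNA sample could be taken from the labels.

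Protease inhibitors are small proteins that bind a protease tightly and block its active site. Plants keep them as a store of protection against the digestive enzymes of insects and microbes, and many of their genes are switched on by wounding and by the hormone jasmonate. The protein of wip1 is a Bowman-Birk-type inhibitor of serine proteases, described from wounded maize coleoptiles. The protein of cpi2 is a cystatin, the family that inhibits cysteine proteases of the papain type, some of which are the plant's own. The gene piip1 carries the synonym IIG1 and was grouped with the protease inhibitors in advance. The annotation used does not state what its protein does, so whether it inhibits proteases is not established here.

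The genes were picked because earlier results of these same arrays had shown piip1 and cpi2 higher in GA3 than in control, piip1 and wip1 higher in GA3 than in UCZ, and wip1 lower in UCZ than in control. Those differences are therefore given as a description, with no test. Where calls of the fit are counted for them, the count is a description too. Tests are given only where a gene was not picked for the comparison, namely wip1 in GA3 against control, piip1 in UCZ against control, and cpi2 in UCZ against control and in GA3 against UCZ. The 3 comparisons share arrays, so these tests reuse arrays whose values helped to pick the genes, and they are not independent of that choice.

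The arrays had been scaled by the authors to a common mean, and their median signals lay between 183.1 and 203.2. The actin 3′/5′ signal ratio, which reads RNA integrity, was 4.64 and 3.40 in GA3, 4.14 and 3.11 in UCZ, and 3.57 and 2.76 in control (replicates 1 and 2). The 12 probe sets for bacterial poly-A control transcripts had mean log2(signal + 16) values of 8.99 and 8.72 in UCZ, against 8.37 and 8.06 in control, and of 8.35 and 7.82 in GA3. Scaling the arrays to these controls moved the median log2 difference of all probe sets tested to −0.67 in UCZ against control, 0.81 in GA3 against UCZ and 0.15 in GA3 against control, where it was −0.03, 0.04 and 0.02 as deposited. Differences below are on the deposited scale, and values under the other scaling are given beside several of them. All 11 leaf and photosynthesis markers were measured above the filter on dim probe sets, and none was at 0. Their mean signals over all arrays ran from 4023 (psbs1) to 8836 (psan1), far above the array medians. This list therefore does not set the samples apart from leaf. The summed signal of these markers was 52790 to 55990 in GA3, 68070 to 74710 in UCZ and 67840 to 70650 in control. Of the 11 genes, 5 were lower in GA3 than in UCZ (6.33% of all probe sets) and 1 (pdk1) was lower in GA3 than in control (0.842% of all). With the replicate number as a block these counts were 9 and 5 of 11. That block called 3271 and 866 of the 10573 probe sets tested in the same comparisons, in either direction. Of 6 kernel storage markers, 1 (gz27) passed the filter, the lowest single signal was 0.648 in GA3, 0.492 in UCZ and 0.847 in control, and their sum was 151.9 to 165.7 in GA3, 160.4 to 176.7 in UCZ and 138.8 to 139.5 in control. The phosphate transporter gene pht1, taken as a root marker, had 675.4 and 787.6 as its lowest and highest signal in GA3, 768.0 and 792.3 in UCZ, and 887.0 and 901.8 in control. The tissue label could be checked only against these lists, since no gene marks the mesocotyl alone with certainty, and their part in the results below was not tested. Fewer cells of a type and less transcript per cell cannot be told apart in RNA of a whole organ.

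The single wip1 probe set, Zm.186.1.S1_at, was bright in GA3 and control and dim only by comparison in UCZ. Its signals were 4684 and 4490 in GA3, 1493 and 1393 in UCZ, and 4456 and 3897 in control, with means of 4587 ± 137, 1443 ± 70.9 and 4176 ± 396 (SD, n = 2). Both UCZ arrays lay far below the other 4, and both GA3 arrays lay just above both control arrays. In UCZ the log2 difference from control was −1.52 (SE 0.11), which is 2.87-fold lower, and it was −1.57 in replicate 1 and −1.47 in replicate 2. GA3 was 3.16-fold above UCZ (log2 1.66, SE 0.11), with 1.64 and 1.68 in replicates 1 and 2. With poly-A control scaling the differences were −2.16 in UCZ against control and 2.43 in GA3 against UCZ. The medians of all probe sets tested were then −0.67 and 0.81. The comparison for which wip1 was not picked, GA3 against control, gave a log2 difference of 0.14 (SE 0.11, 95% interval −0.13 to 0.40), which did not pass (limma, adjusted p = 0.743). The order of the wip1 levels was thus GA3, control and UCZ, and the neighbours GA3 and control did not differ beyond their error.

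**Figure D1:**
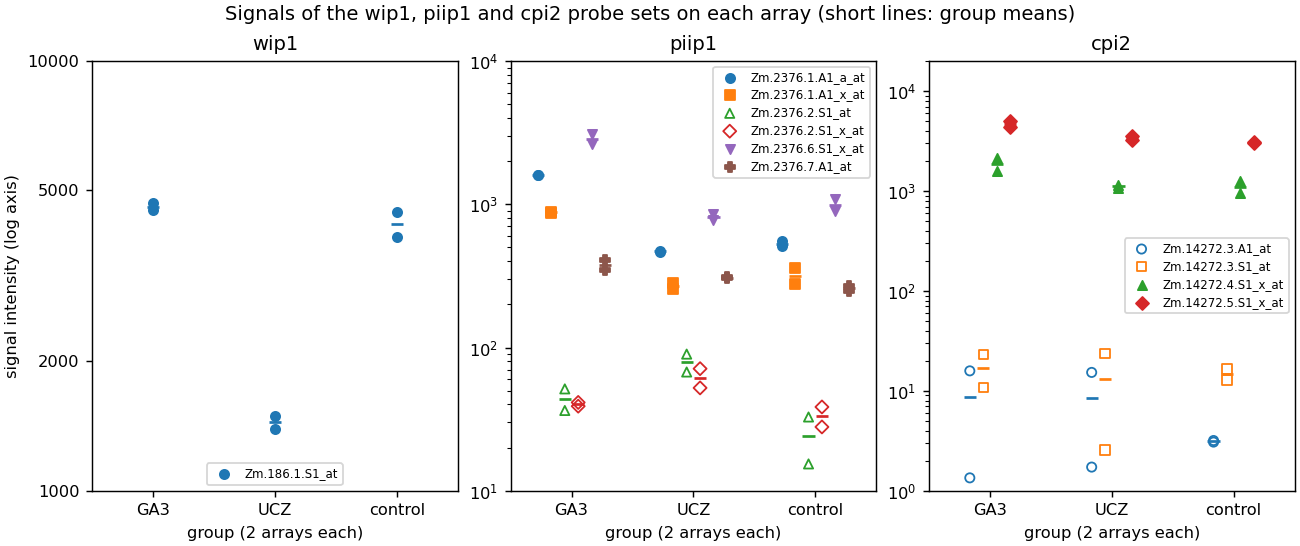
Signal intensity on a log axis of every probe set of wip1, piip1 and cpi2 on each of the 6 arrays, by group, with short lines at the group means; filled symbols are probe sets kept for testing and open symbols those below the filter. The wip1 set is low in both UCZ arrays, 3 piip1 sets (A1_a_at, A1_x_at and 6.S1_x_at) are high in both GA3 arrays, and the open symbols lie below a signal of 100.

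The gene piip1 had 4 probe sets above the filter, and 3 of them showed the same picture, with high signals in GA3 and lower, similar signals in UCZ and control. The brightest, Zm.2376.6.S1_x_at, had signals of 2648 and 3090 in GA3, 860.8 and 776.2 in UCZ, and 1090 and 902.1 in control. Both GA3 arrays were above every other array, and both UCZ arrays were below both control arrays. Its log2 difference was 1.51 in GA3 against control (SE 0.15, 2.85-fold) and 1.79 in GA3 against UCZ (3.45-fold).

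Zm.2376.1.A1_a_at, a probe set whose suffix a marks probes shared by transcripts of 1 gene, had signals of 1601 and 1592 in GA3, 471.9 and 466.1 in UCZ, and 509.6 and 550.1 in control. Its groups did not overlap in any comparison, and its replicates were closer together than those of the brightest set. Its log2 difference was 1.56 in GA3 against control (SE 0.12, 2.96-fold), and 1.62 and 1.51 in replicates 1 and 2. Zm.2376.1.A1_x_at had 875.9 and 889.0 in GA3, 257.1 and 282.4 in UCZ, and 356.9 and 276.9 in control. Here the UCZ and control arrays overlapped, and GA3 was 2.72-fold above control (log2 1.44, SE 0.16). The suffix x of this set and of the brightest one marks probes that also match other sequences, so that signal from related genes cannot be separated from that of piip1.

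The fourth kept set, Zm.2376.7.A1_at, showed the same direction in GA3 but a smaller difference. Its signals were 405.3 and 348.6 in GA3, 311.1 and 303.5 in UCZ, and 270.4 and 247.6 in control. GA3 was again highest on both arrays, but UCZ lay above control, which was the reverse of the other kept sets. GA3 exceeded control by a log2 difference of 0.51 (SE 0.14, 1.43-fold), beside 1.44 to 1.56 for the other 3, with no test between the sets. In GA3 against UCZ its log2 difference was 0.28, or 1.05 under poly-A control scaling. Over the 6 arrays the 3 concordant sets correlated with each other at r = 0.983 to 0.991, and each of them with Zm.2376.7.A1_at at r = 0.761 to 0.796. These are descriptions over 6 arrays that share the same RNA.

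The 2 remaining piip1 sets were below the filter, which kept probe sets with a mean log2(signal + 16) of at least 6.96. Zm.2376.2.S1_at had signals of 51.4 and 36.3 in GA3, 67.4 and 89.9 in UCZ, and 32.7 and 15.4 in control. Zm.2376.2.S1_x_at had 41.3 and 38.9 in GA3, 71.2 and 52.2 in UCZ, and 38.5 and 27.9 in control. In both the UCZ arrays were the highest on the deposited scale, so that the order of the groups differed from that of the bright sets, and they correlated with each other at r = 0.847 and with the 3 concordant sets at r = −0.284 to −0.080. No error or test is given for these dim values.

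The comparison for which piip1 was not picked, UCZ against control, passed for none of its 4 kept sets. The log2 difference was −0.27 (95% interval −0.62 to 0.07) for the brightest set, −0.17 (−0.45 to 0.11) for Zm.2376.1.A1_a_at, −0.21 (−0.57 to 0.15) for Zm.2376.1.A1_x_at and 0.23 (−0.10 to 0.56) for Zm.2376.7.A1_at, with limma adjusted p from 0.243 to 0.394. The order of the piip1 levels in the 3 concordant sets was GA3, control and UCZ, with no detectable step between control and UCZ on the deposited scale. Under poly-A control scaling the same 3 sets were lower in UCZ, by log2 differences of −0.91, −0.81 and −0.85 (adjusted p = 0.0184, 0.0300 and 0.0256), and the fourth turned to −0.41 without passing. That scaling moved the median of all probe sets tested to −0.67 in this comparison and called 4286 of the 10573. These values thus go with a shift of the whole array and are not particular to piip1.

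The cystatin gene cpi2 had 2 bright probe sets, both with the suffix x, and both were highest in GA3. That suffix marks probes that also match other sequences, so signal from related genes cannot be separated from that of cpi2. The cpi2 sets without it were near the bottom of the measured range. Zm.14272.5.S1_x_at had signals of 4422 and 4973 in GA3, 3218 and 3529 in UCZ, and 3010 and 3069 in control. Both GA3 arrays were above the other 4, and both UCZ arrays were above both control arrays. Zm.14272.4.S1_x_at had 2123 and 1579 in GA3, 1138 and 1085 in UCZ, and 1250 and 966.9 in control. GA3 was again highest on both arrays, while UCZ lay within the range of control.

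The 2 sets gave similar sizes. GA3 exceeded control by a log2 difference of 0.62 (SE 0.11, 1.54-fold) in the first and 0.73 (SE 0.18, 1.66-fold) in the second, with replicate differences of 0.55 and 0.69, and of 0.76 and 0.70. They correlated at r = 0.785 over the 6 arrays. In GA3 against UCZ both passed, with log2 differences of 0.47 (SE 0.11, 1.39-fold, limma adjusted p = 0.0294) and 0.71 (SE 0.18, 1.64-fold, adjusted p = 0.0414), and GA3 was higher in both replicates of each. The same 2 GA3 arrays had served to pick cpi2 against control, so this is no independent test. The call also depended on the processing, and held in 6 of 16 alternatives for the first set and 11 of 16 for the second. With all arrays present it was lost with no filter (adjusted p = 0.0509 and 0.064) and with no trend (0.0552 and 0.0511), and for the first set with median centring (0.0793) and with only the arrays compared (0.0539). The first set missed the threshold in each of the 6 fits that left out 1 array (adjusted p from 0.0524 to 0.145), and the second did so without GA3 replicate 1, UCZ replicate 1 or UCZ replicate 2 (adjusted p = 0.178, 0.114 and 0.156). In UCZ against control the log2 differences were 0.15 (95% interval −0.11 to 0.40, adjusted p = 0.395) and 0.01 (−0.41 to 0.44, adjusted p = 0.966), and neither passed. Under poly-A control scaling these 2 values turned to −0.49 and −0.63, again without passing. With that scaling the 2 sets had 1.24 and 1.48 in GA3 against UCZ, where the median of all probe sets tested was 0.81. The order was GA3, UCZ and control in both bright sets, with UCZ and control not separated beyond their error.

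The other 2 cpi2 sets were near the bottom of the measured range. Zm.14272.3.A1_at had signals of 1.35 and 15.8 in GA3, 15.3 and 1.72 in UCZ, and 3.07 and 3.18 in control, and Zm.14272.3.S1_at had 23.2 and 10.8 in GA3, 23.8 and 2.56 in UCZ, and 12.8 and 16.5 in control. Groups overlapped in every comparison, and the replicates of GA3 and UCZ lay further apart than the groups.

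**Figure D2:**
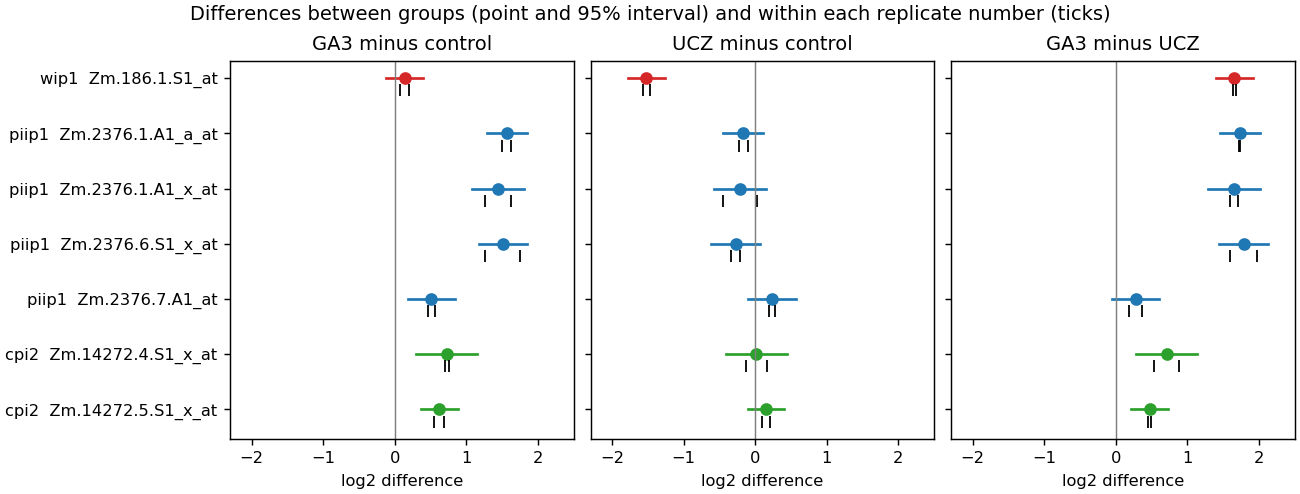
Log2 differences between groups of the 7 kept probe sets, as the mean with its 95% interval, with ticks below each for the difference within replicate number 1 and 2. In GA3 minus control, 3 piip1 sets lie between 1.44 and 1.56 and wip1 at 0.14. In UCZ minus control only wip1, at −1.52, has an interval that excludes 0. In GA3 minus UCZ all 7 points lie above 0, and the interval of Zm.2376.7.A1_at includes 0.

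Counted together, 7 of the 11 probe sets passed the filter. As a description, in GA3 against control the fit called 4 of these 7, all higher in GA3 (3 of piip1 and 1 of cpi2, the cpi2 call holding in 4 of 16 alternatives), where 1.32% of the 10573 probe sets tested were called, 0.482% higher and 0.842% lower. The groups of all 7 did not overlap, as in 40.1% of all probe sets. In UCZ against control it called 1 of 7, wip1, lower in UCZ, with 15.4% of all probe sets called, 6.44% higher and 8.97% lower. Groups did not overlap in 5 of 7 (2 higher and 3 lower), as in 61.1% of all. In GA3 against UCZ it called 6 of 7, all higher in GA3, with 13.9% called, 7.61% higher and 6.33% lower. The groups of all 7 did not overlap, as in 57.5% of all. Since the genes were picked from these comparisons, nothing is read from the counts of the genes in the comparisons that chose them. Probe sets of 1 gene are also no replicates of each other. The median log2 difference of the 7 sets was 0.73, −0.17 and 1.65 in the 3 comparisons, where that of all probe sets tested was 0.02, −0.03 and 0.04. The choice of the genes shaped these medians too, so nothing is read from them.

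The values of the 3 genes can be set side by side, and the difference between genes was not tested. Within replicate 1 the brightest sets of wip1, piip1 and cpi2 had GA3 minus control log2 differences of 0.07, 1.27 and 0.55, and UCZ minus control differences of −1.57, −0.34 and 0.10. Within replicate 2 the GA3 minus control differences were 0.20, 1.76 and 0.69, and the UCZ minus control differences −1.47, −0.21 and 0.20. Over the 6 arrays the brightest sets of piip1 and cpi2 correlated at r = 0.902, those of wip1 and piip1 at r = 0.674 and those of wip1 and cpi2 at r = 0.338, as a description. Both piip1 and cpi2 were picked for GA3 above control, and both wip1 and piip1 for GA3 above UCZ, on these same arrays. That choice favours such correlations, so nothing is read from them.

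A few probe sets share the number of the piip1 and cpi2 sets in their identifier without being annotated to those genes. Zm.2376.4.A1_x_at, which the annotation does not name, had signals of 207.2 and 181.2 in GA3, 85.2 and 94.3 in UCZ, and 50.3 and 41.4 in control, so GA3 was highest and UCZ second, and its mean lay just below the filter. Zm.2376.3.S1_a_at and Zm.2376.3.S1_at, also unnamed, had mean signals of 1779 and 525.2 in GA3, 1647 and 430.4 in UCZ, and 1855 and 663.3 in control. They were thus not highest in GA3, and in UCZ against control the second passed with a log2 difference of −0.61 (limma adjusted p = 0.0213) and the first did not (−0.17, adjusted p = 0.387). The probe sets of cpi2 share their number with those of the cystatin gene psei1. Whether signal of psei1 reaches the bright cpi2 sets, which carry the suffix x, was not tested.

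Of 4 further genes matched to the inhibitor list by name, 3 could be tested. They were the cystatin genes psei1 and cc7 and the gene piip2. The synonym IIG2 of piip2 parallels that of piip1, and the annotation used does not state what its protein does. None of the 3 passed in GA3 against control or in GA3 against UCZ, and in UCZ against control 1 fell (piip2) and 2 did not pass. Of all probe sets tested, 1.32% were called in GA3 against control and 13.9% in GA3 against UCZ. In UCZ against control 8.97% were called lower and 6.44% higher. The signals of piip2 were 180.6 and 270.4 in GA3, 156.1 and 176.7 in UCZ, and 399.1 and 521.4 in control. Both treatments lay below both control arrays, unlike piip1. The log2 difference of piip2 was −1.37 in UCZ against control (SE 0.22, 2.59-fold lower, limma adjusted p = 0.00751, and 0.0536 without control replicate 2) and −0.99 in GA3 against control (adjusted p = 0.092; 0.00047 with the replicate number as a block).

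The cystatin gene psei1 was bright on all arrays, with 6975 and 8225 in GA3, 7496 and 6563 in UCZ, and 6167 and 5714 in control. Its differences from control were 0.35 in GA3 (adjusted p = 0.285) and 0.24 in UCZ (adjusted p = 0.21), while its other probe set gave 0.57 in UCZ (adjusted p = 0.0251), so the 2 sets disagree in that call. The cystatin gene cc7 had 3941 and 3864 in GA3, 4401 and 4289 in UCZ, and 3533 and 2715 in control. In UCZ it lay 0.49 above control, just short of passing (adjusted p = 0.0509, or 0.00313 in the fit with the block). The fourth gene, the cystatin cc3, was below the filter, with signals of 6.14 to 24.8. In GA3 against control the 2 cpi2 sets had 0.62 and 0.73, psei1 had 0.35 and cc7 had 0.33, and the difference between the genes was not tested.

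Cysteine proteases are the enzymes that cystatins inhibit, and 7 of 8 genes on that list could be tested. None passed in either comparison with control (2 higher and 1 lower in GA3, and 1 higher and 2 lower in UCZ, with the block), and in GA3 against UCZ 1 was higher and 1 lower (3 higher and 1 lower with the block). Of the 10573 probe sets tested, the block called 866 in GA3 against control, 3662 in UCZ against control and 3271 in GA3 against UCZ. Without the block the shares called were 1.32% in GA3 against control and 15.4% in UCZ against control. In GA3 against UCZ they were 7.61% higher and 6.33% lower. The gene mir2, a papain-type protease, had 1617 and 1585 in GA3, 868.6 and 804.6 in UCZ, and 1007 and 1148 in control. It was higher in GA3 than in UCZ by 0.92 (SE 0.13, limma adjusted p = 0.00467). The gene see2b, a legumain-type vacuolar protease, had 1265 and 1227 in GA3, 2262 and 2201 in UCZ, and 1507 and 1813 in control, and was lower in GA3 than in UCZ by −0.83 (adjusted p = 0.00667). Under poly-A control scaling that value was −0.06 and did not pass (adjusted p = 0.855), while that of mir2 was 1.69. Medians over the list were 0.044, 0.048 and 0.28 in GA3 against control, UCZ against control and GA3 against UCZ, beside 0.02, −0.03 and 0.04 over all probe sets. The list of serine proteases, the targets of Bowman-Birk inhibitors, matched no named gene.

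**Figure D3:**
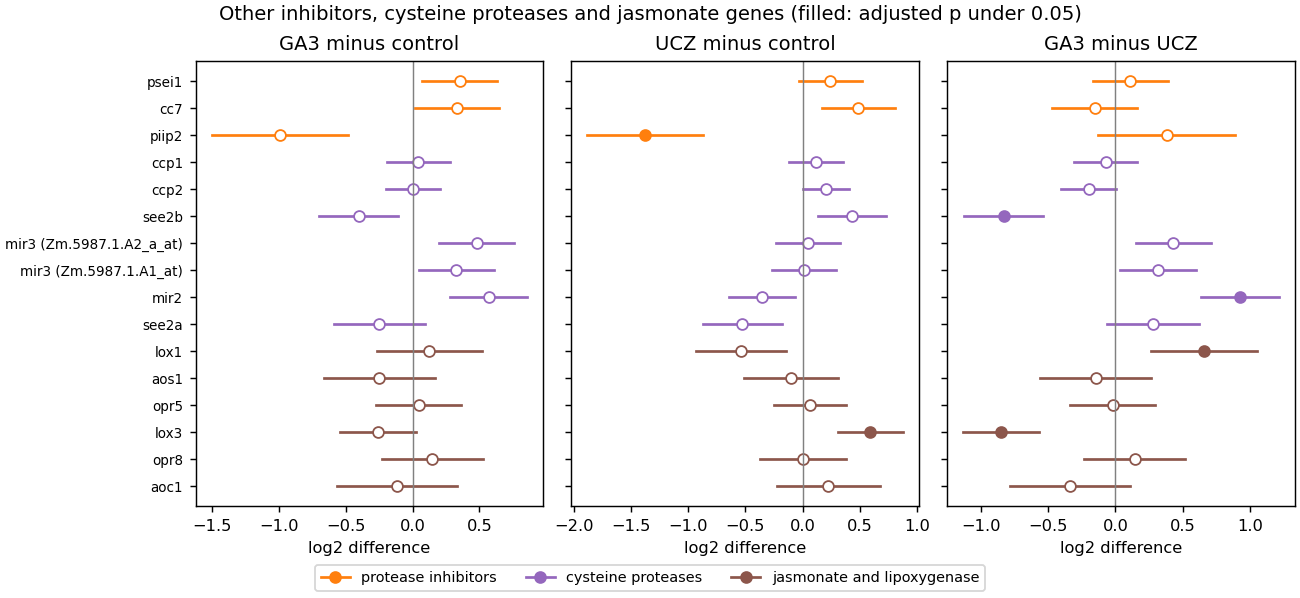
Log2 differences with 95% intervals of the tested genes of 3 lists, with filled symbols for adjusted p under 0.05. The lists are genes matched by name as other protease inhibitors, as cysteine proteases, and as jasmonate and lipoxygenase genes. No gene is filled in GA3 minus control, piip2 and lox3 are filled in UCZ minus control, and see2b, mir2, lox1 and lox3 are filled in GA3 minus UCZ; mir3 stands for 2 gene identifiers with that symbol.

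Jasmonate is made from fatty acids by lipoxygenase, allene oxide synthase, allene oxide cyclase and oxophytodienoate reductase, and the list of these genes also holds family members of other pathways. Of 9 genes, 6 could be tested. None passed in GA3 against control, 1 rose in UCZ against control, and in GA3 against UCZ 1 was higher and 1 lower. Of all probe sets tested, 1.32% were called in GA3 against control and 6.44% were called higher in UCZ against control. In GA3 against UCZ 7.61% were called higher and 6.33% lower. With the replicate block, UCZ against control had 1 higher and 1 lower (lox1, log2 −0.54, adjusted p = 0.0704 without the block and 0.00852 with it). That block called 3662 of the 10573 probe sets tested in UCZ against control. The lipoxygenase gene lox3 had 388.9 and 382.7 in GA3, 704.2 and 711.4 in UCZ, and 474.4 and 455.3 in control. It rose in UCZ by 0.59 (SE 0.12, limma adjusted p = 0.0194), a call that was lost without UCZ replicate 1 or 2 or control replicate 1 or 2 (adjusted p up to 0.108) and whose sign turned under poly-A control scaling (−0.0505, adjusted p = 0.886). It was lower in GA3 than in UCZ by −0.85 (adjusted p = 0.00552), or −0.08 under that scaling (adjusted p = 0.809). The lipoxygenase gene lox1 went the other way, with 3707 and 4733 in GA3, 2625 and 2665 in UCZ, and 4431 and 3333 in control, and a difference of 0.66 in GA3 against UCZ (SE 0.17, adjusted p = 0.0414), which was lost without GA3 replicate 2, UCZ replicate 1 or UCZ replicate 2 (adjusted p up to 0.163). Its second probe set gave 0.81 (adjusted p = 0.0253). The synthase gene aos1 and the cyclase gene aoc1 did not pass in any of the 3 comparisons. Medians over the list were −0.035, 0.035 and −0.084 in the 3 comparisons, beside the values for all probe sets given above.

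The named genes most like wip1, piip1 and cpi2 were ranked by Pearson correlation of log2(signal + 16) over the 6 arrays. The brightest probe set stood for each of 818 other genes. For wip1 they were myb31, rip2, gst16, fae1 and gdh1 (r = 0.988 to 0.994). The ribosome-inactivating protein gene rip2 came closest in size, with 336.5 and 362.1 in GA3, 114.4 and 103.8 in UCZ, and 294.6 and 316.7 in control. The transcription factor gene myb31 had the highest r but hardly moved, with 258.6 to 260.2 in GA3, 235.3 to 235.4 in UCZ and 254.0 to 260.8 in control. In all 5 both UCZ arrays were below the other 4, a pattern that the ranking by likeness to wip1 selects for.

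For piip1 the likest genes were phytase1, pip2f, LOC542631, expB6 and expA3 (r = 0.962 to 0.983). The phytase gene phytase1 had 1089 and 1072 in GA3, 244.0 and 277.6 in UCZ, and 402.6 and 357.7 in control, and the aquaporin gene pip2f had 832.0 and 1014 in GA3, 205.7 and 237.1 in UCZ, and 371.8 and 356.9 in control. In UCZ against control their log2 differences were −0.52 and −0.68, beside −0.27 for piip1, with no test of the difference. For cpi2 they were expB3, annexin2, LOC542763, cesa5 and mir3 (r = 0.959 to 0.996). The expansin gene expB3 had 235.5 and 265.1 in GA3, 180.3 and 186.5 in UCZ, and 161.7 and 167.0 in control. It had the same order of groups as cpi2, which the ranking also selects for. These correlations rest on 3 groups of 2 arrays that share their scaling, and no p is given.

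**Figure D4:**
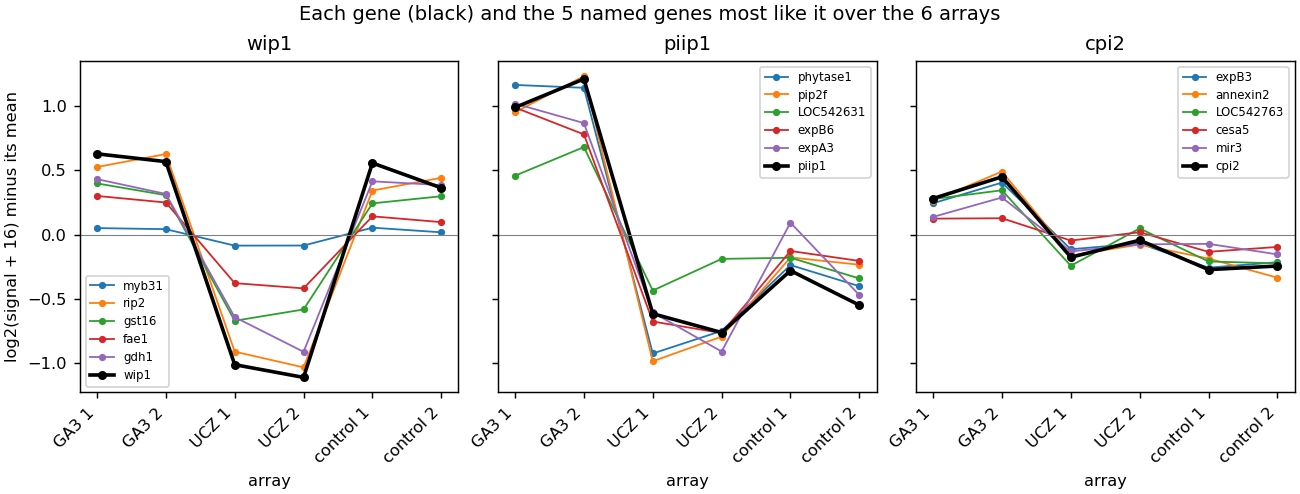
Profiles over the 6 arrays, as log2(signal + 16) minus its mean over the arrays, of wip1, piip1 and cpi2 (black, brightest probe set) and of the 5 named genes with the highest Pearson correlation to each. The wip1 profiles are low in both UCZ arrays, the piip1 and cpi2 profiles are high in both GA3 arrays, and the cpi2 panel spans the smallest range.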

How the data were processed

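Linear signal intensities were deposited by the authors for every probe set on each array. GCOS and MAS5 are named, with no version, per the submitters' processing notes. With 2% trimmed on each side, the array means were 500.1 to 500.2. From these values log2(signal + 16) was computed, 113 manufacturer controls were left out, and the brightest 60% of probe sets by mean over all arrays (10573 of 17621) were tested with limma 3.58.1 in R 4.3.3 (lmFit, eBayes with trend, all 6 arrays, 3 residual and 4.52 prior degrees of freedom, two-sided, Benjamini-Hochberg over all tested, threshold 0.05). With 2 arrays a group, this number limits the precision. The labels call the replicates biological and say no more of their origin, so p-values measure only the spread between these samples. Fold changes are on the log2(signal + 16) scale and understate changes of dim genes. Of the probe sets, 1452 carried 1 gene name, 1 carried several and 16168 carried none, and RefSeq (Zm-B73-REFERENCE-NAM-5.0, for names alone) held 1060 of the 1108 genes. LOC names were replaced by a synonym where there was one. For genes with several probe sets the brightest stands for the gene outside the 3 main genes. Lists were matched on symbols and synonyms only, since the tables hold no descriptions. A different gene that carries the synonym PDK1 was removed from the leaf markers after the matches were seen.

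The replicate numbers recur in each group and the series names independent experiments, and the test given in the text has no block. The correlation of same-numbered deviations was 0.755 for GA3 with UCZ, 0.664 for GA3 with control and 0.724 for UCZ with control. Blocking on the number was an alternative. In simulated data for UCZ against control over 10573 probe sets, 8.96% of the 1.5-fold changes were found, against 50.7% at 2-fold and 93.9% at 4-fold. The simulated errors were independent between arrays, and only 67, 67 and 66 probe sets were changed at these folds. These shares are therefore not the detection rates in the real arrays. Members, lists, tests and alternatives were chosen with earlier results of these data known. Named genes were every probe set of the 3 genes, the 5 likest genes of each and every further gene on the inhibitor list. The called genes of the other lists were named too (at most 3 a list and comparison). Unnamed sets with a shared number, and aos1 and aoc1, were added after their values were seen. No sequences are shown, because none were in the tables used. Plots used Python 3.11.15 and matplotlib 3.10.9.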

Additional observations from a re-analysis of the deposited data

How the results depend on the processing

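Alternatives were the replicate block, a pseudocount of 1 or of 64, testing every probe set (no filter) or the brightest 40%, median centring, quantile normalization, poly-A control scaling (known from an earlier analysis), a prior without trend, only the arrays compared, and leaving out each array. Log2 differences of the wip1, piip1 and cpi2 probe sets were recomputed 525 times. Of these, 471 kept their side of the threshold, or moved by less than the replicate SD. Of the rest, 31 moved by more than that, 15 lost a call, 3 gained a call and 5 tested ones changed sign. Counted over all 525, 20 changed sign, 15 of them in the 4 probe sets below the filter. Some of those 15 are among the 471, since their move was smaller than the SD. The other 5 were, with poly-A control scaling in UCZ against control, −0.41 for Zm.2376.7.A1_at and −0.63 and −0.49 for the cpi2 sets, and 2 among the fits without 1 array for Zm.14272.4.S1_x_at, which ranged from −0.17 to 0.20. Among the dim sets, Zm.2376.2.S1_at and Zm.2376.2.S1_x_at turned to 0.11 and 0.31 in GA3 against UCZ with that scaling. The listed gene lox3 turned to −0.0505 in UCZ against control with poly-A control scaling. The number of these probe sets called in UCZ against control, 1 as deposited, was 2 with no filter and 4 with poly-A control scaling. In GA3 against control it was 4 as deposited, 3 in 12 of 16 alternatives, 4 in 3 and 6 with the replicate block. In GA3 against UCZ it was 6, lower in 10 of 16 alternatives (down to 4), and 7 with poly-A control scaling. The block ended no call of these genes. Calls in the comparisons that picked the genes were favoured by that choice, so their persistence is no support for them.

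The number of all probe sets called in GA3 against control was 140, and it was 866 with the replicate block, 78 with the brightest 40% and 78 with poly-A control scaling, and 51 to 112 without 1 array. In UCZ against control it was 1629, and it was 3662 with the block, 4286 with poly-A control scaling and 552 to 1546 without 1 array. In GA3 against UCZ it was 1474, and it was 3271 with the block, 6657 with poly-A control scaling and 541 to 1154 without 1 array. Ranked by Spearman correlation, ties included, 1, 0 and 3 of the 5 likest genes of wip1, piip1 and cpi2 stayed, so these rankings depend on the measure. The cause of these changes was not tested. With signals and no detection calls, the 4 dim probe sets set no bound on either gene.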
